A study of Mus musculus with 27 samples.

Results

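Prph2, Rom1, Prom1, Cdhr1, Fscn2, Rp1 and Rp1l1 encode proteins that build the membrane discs of the photoreceptor outer segment and hold them on its axoneme. These 7 genes were picked by symbol from a table of 38168 features of the mouse retina, and each had 1 entry under its symbol. All 7 passed the filter on low values, at least 1 CPM (reads of a feature scaled to the reads of its library) in at least 3 libraries, which 31760 features passed in all. Together they rose from 0.00989% of all reads at E14, mostly Prom1, to 0.884% at P28, mostly Rp1. Of the 7 genes, 6 had their largest step between P1 and P6. They kept different schedules. At P6 Prom1 and Cdhr1 stood at 104% and 107% of their P28 mean, Prph2 at 29.9% and Fscn2 at 17.1%.

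Whole retinas of wild type C57BL/6J mice were taken for total RNA sequencing at embryonic days E14 and E17 (3 libraries each) and at postnatal days P1 (4), P6 (3), P15 (4), P28 (4) and P60 (6), 27 libraries in all. The series served to follow thyroid hormone receptor transcripts through retinal development. No treatment or mutation was applied, and every group lived in alternating 12 h periods of light and dark with dissection in the light period. RNA came from retinas pooled over embryos or mice up to P28. At P60, 4 of the 6 libraries came from single mice and the rest from pools of 3 mice, which the labels do not tell apart. The labels give 3 retinas for each library, fewer than the pools stated with the methods. Retinas from ages after P1 were from males, and those from embryos and P1 pups from both sexes together. Age and sex therefore cannot be told apart in any comparison of P1 or earlier with P6 or later. The labels do not say whether libraries of one age came from separate litters, and p-values measure the spread between these libraries only.

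The outer segment is a modified cilium packed with a stack of flattened membrane discs, which carry the visual pigment and the phototransduction enzymes. New discs form as membrane outgrowths at the base of the outer segment, take on a sharply curved rim as they close, and are shed at the tip, so that the stack is rebuilt throughout life. Prph2 (peripherin 2) and Rom1 are tetraspanin proteins that join into chains along the disc rim and hold its curvature. Prom1 (prominin 1) is a membrane protein of the young, still open discs, Cdhr1 (photoreceptor cadherin) sits at their growing edge, and Fscn2 (retinal fascin) bundles actin filaments. Rp1 and Rp1l1 are doublecortin-domain proteins bound to the microtubules of the axoneme, along which the discs are stacked. Variants in the human counterparts of several of these genes cause inherited retinal degeneration. In the mouse most photoreceptors are rods, and their outer segments grow after birth.

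Between 7076646 and 11330762 reads per library fell on listed features, with a median of 7968785, and the fewest reads of any of the 7 genes in any library was 9, for Fscn2. The ± values are SDs between libraries or standard errors from the fits, as marked. Together the 7 genes held 0.00989% ± 0.000283 of reads at E14 (SD, n = 3), 0.0468% ± 0.000966 at P1 (n = 4) and 0.621% ± 0.0405 at P6 (n = 3). The share was 0.884% ± 0.0151 at P28 (n = 4) and 0.807% ± 0.0319 at P60 (n = 6). Prom1 was its largest part at E14, with a mean of 68.8 CPM, and Rp1 at P28 and P60, with 4725 and 3709 CPM. The summed CPM of 5 rod markers (Nrl, Nr2e3, Gnat1, Pde6b, Cnga1) ran from 8.0 to 12.4 at E14 and from 7702 to 9139.8 at P28, and that of 5 markers of dividing progenitors from 5587 to 5824 and from 17.3 to 22.3. The 5 cone markers summed to 8.23 to 9.47 CPM at E14 and 446 to 479.7 at P28, and the 5 Müller glia markers to 262 to 269 and 978 to 1051. At P28 Gnat1 made up most of the rod sum, with a mean of 5912 CPM, and Glul of the Müller sum, with 612. Slc1a3 alone among the Müller markers was lower at P28 than at E14, with means of 113 and 126 CPM. Markers of other tissues were low throughout, with 5 pigment epithelium markers between 2.47 and 49.4 CPM in sum, 4 listed lens markers at no more than 7.11 CPM and 5 blood markers at no more than 50.3 CPM. The pigment epithelium sum was highest at P15, from 31.3 to 49.4 CPM, and the blood sum at P6, from 39.6 to 50.3, and their part in the results was not tested. In whole retina a rise in CPM joins a larger share of the cells that hold the RNA with more RNA per cell, and these cannot be told apart. Which cells gave the reads of each gene, such as those of Prom1 at E14, was not tested.

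**Figure D1:**
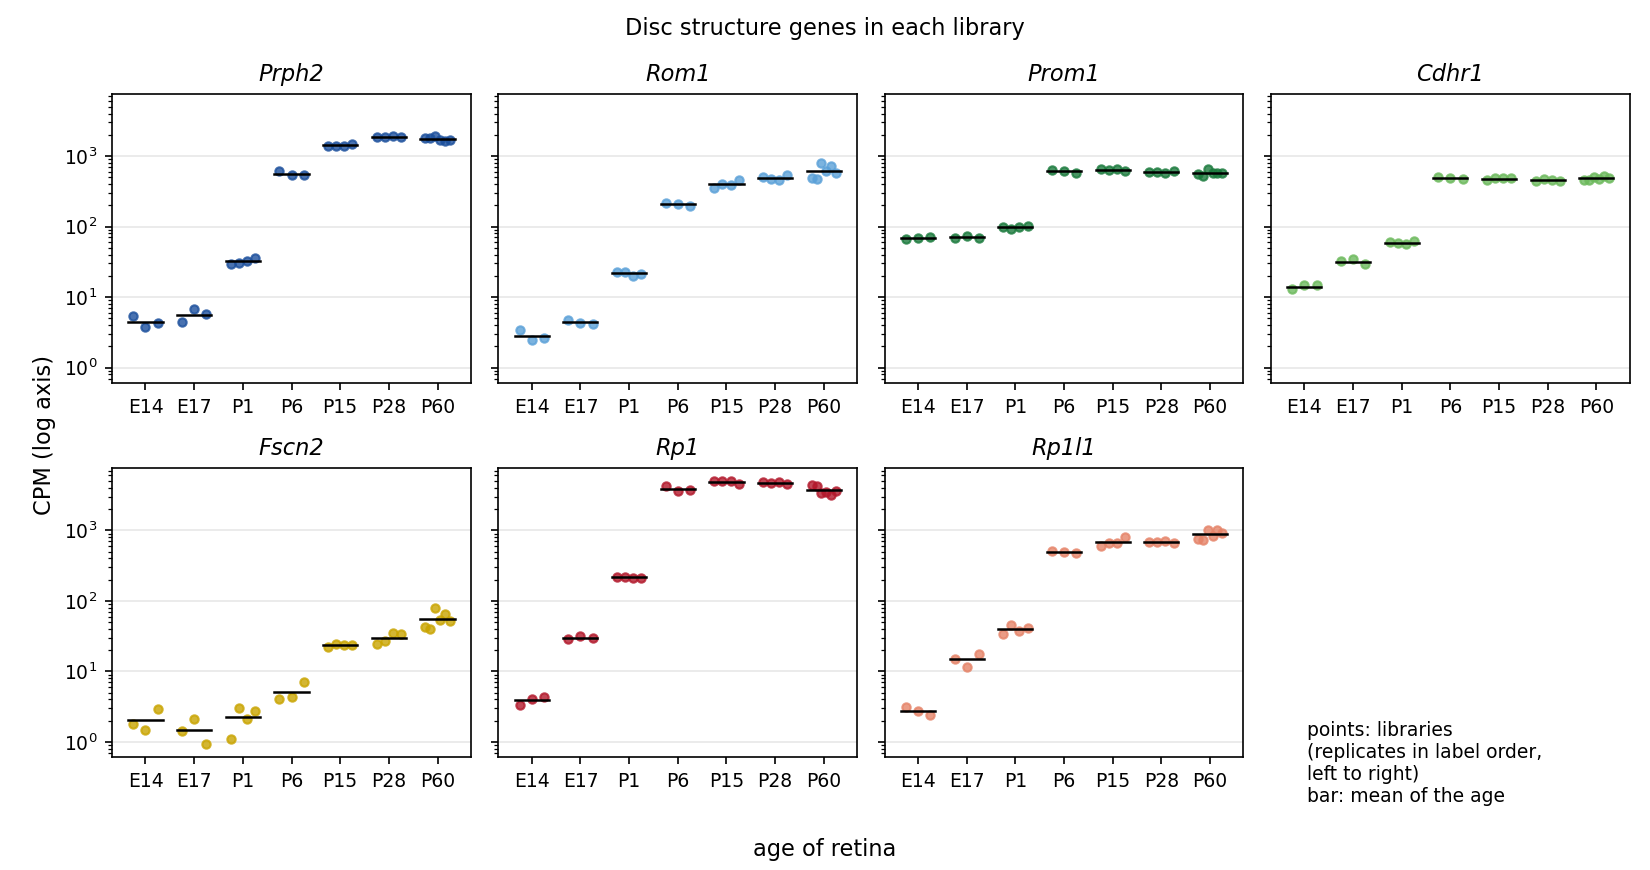
Level of each disc structure gene in each of the 27 libraries, in CPM on a log axis, by age, with points for libraries and a bar for the mean of each age. Prph2 went from a mean of 4.50 CPM at E14 to 1875 at P28, while Prom1 started at 68.8 CPM and stayed between 513 and 652 from P6 on.

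Mature retina (the mean of P15, P28 and P60) was compared with embryonic retina (the mean of E14 and E17) to size the whole change. All 7 genes were higher in mature retina by limma, at an adjusted p under 0.05 and a log2 fold change of at least 1, a call that 14.9% of the 31760 features received in that direction (35% at the adjusted p alone). Rp1 changed by 8.48 ± 0.054 (SE, adjusted p = 2.28e-41) on the log2(CPM + 1) scale, and its p was the smallest of all features tested. Prph2 followed with 8.12 ± 0.06 (SE, adjusted p = 7.42e-40), Rom1 with 6.75 ± 0.082 (SE, adjusted p = 1.69e-34) and Rp1l1 with 6.59 ± 0.076 (SE, adjusted p = 5.46e-35). The difference was smaller for Cdhr1, at 4.41 ± 0.044 (SE, adjusted p = 1.49e-36), for Fscn2, at 3.67 ± 0.15 (SE, adjusted p = 1.39e-20), and for Prom1, at 3.08 ± 0.041 (SE, adjusted p = 2.24e-33). In ratios of mean CPM, Prph2 was 332-fold, Rp1 261-fold, Rom1 138-fold and Rp1l1 85.0-fold higher. Prom1, which starts from a higher level, was 8.58-fold higher, Cdhr1 20.6-fold and Fscn2 20.4-fold. The log2 scale with a pseudocount of 1 understates the change of genes that were low in the embryo, Fscn2 above all. The median log2 fold change was 6.59 over the 7 genes and -0.06 over all features tested.

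Of the disc rim pair, Prph2 lies at chr17:46910459-46924933 on the plus strand (GRCm38, GENCODE vM21). Its values were 5.40, 3.80 and 4.32 CPM in the 3 E14 libraries, 4.50, 6.71 and 5.69 at E17 and 29.1, 30.1, 33.0 and 36.3 at P1. They were 612, 531 and 539 CPM at P6, 1405, 1379.9, 1382 and 1477 at P15 and 1870.5, 1855, 1901 and 1873 at P28. At P60 Prph2 ran from 1659.5 to 1926 CPM with a median of 1739. The E14 and E17 libraries overlapped, every later age up to P28 lay wholly above the age before it, and P60 reached both above and below P28. By limma Prph2 rose by 2.33 ± 0.094 (SE, adjusted p = 4.80e-18) from E17 to P1, by 4.09 ± 0.094 (SE, adjusted p = 2.53e-25) from P1 to P6 and by 1.33 ± 0.094 (SE, adjusted p = 8.16e-13) from P6 to P15. Its level at P28 was again higher than at P15, by 0.41 ± 0.087 (SE, adjusted p = 0.00505), and of the 7 genes it alone had an adjusted p under 0.05 at that step with the spread of all ages. With the spread of P15 and P28 alone Rom1 passed as well, with 0.31 (adjusted p = 0.00864) by limma. The change from E14 to E17 was 0.27 ± 0.10 (SE, adjusted p = 0.0966), and it passed when 1 library was left out, with 0.38 (adjusted p = 0.0164) without E14 replicate 1 and 0.39 (adjusted p = 0.00958) without E17 replicate 1.

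Rom1, the partner tetraspanin (chr19:8927391-8929356 on the minus strand), measured 3.40, 2.43 and 2.63 CPM at E14, 4.81, 4.32 and 4.14 at E17 and 22.7, 22.9, 20.2 and 21.5 at P1. Its later values were 219, 208 and 197 CPM at P6, 351, 397, 386 and 456 at P15 and 498, 472, 463 and 530.3 at P28. Each age up to P28 lay above the one before with no overlap, as for Prph2 from P1 on. The P60 libraries spread widely: replicates 1 and 2 had 482 and 471 CPM, within the P28 range, and replicates 3 to 6 had 787, 621, 728 and 569, above it. Rom1 rose by 2.08 ± 0.13 (SE, adjusted p = 1.73e-13) from E17 to P1, 3.19 ± 0.13 (SE, adjusted p = 1.97e-19) from P1 to P6 and 0.93 ± 0.13 (SE, adjusted p = 7.37e-07) from P6 to P15 (limma). The change from E14 to E17 was 0.51 ± 0.14 (SE, adjusted p = 0.00995), but the adjusted p was 0.156 by edgeR, 0.0780 by limma without E14 replicate 2 and 0.0591 without E17 replicate 1. From P28 to P60 the difference was 0.29 ± 0.11 (SE, adjusted p = 0.0710), and the adjusted p was 0.0309 by edgeR, 0.0150 by limma when P60 replicate 1 was left out and 0.0116 when replicate 2 was.

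The upstream sequences of the rim pair are shown because both genes rose past 2-fold at P1 and again at P6. They are the 250 bases before the annotated start in RefSeq (GRCm38.p6), for Prph2 at chr17:46910228-46910477 on the plus strand and for Rom1 at chr19:8929357-8929606 on the minus strand, each written 5′ to 3′ with no capitals because none of the motifs searched was found.
Prph2: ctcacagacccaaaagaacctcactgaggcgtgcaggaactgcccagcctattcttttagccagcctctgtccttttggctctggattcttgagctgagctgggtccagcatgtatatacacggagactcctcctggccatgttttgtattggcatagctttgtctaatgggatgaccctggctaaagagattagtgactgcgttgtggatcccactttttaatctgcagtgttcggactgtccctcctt
Rom1: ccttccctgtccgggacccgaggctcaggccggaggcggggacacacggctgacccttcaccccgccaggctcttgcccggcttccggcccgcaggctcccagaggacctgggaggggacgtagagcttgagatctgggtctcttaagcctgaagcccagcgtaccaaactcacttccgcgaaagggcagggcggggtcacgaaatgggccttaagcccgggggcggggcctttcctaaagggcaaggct
Windows of 250 bases before to 50 after the start were at hand for 5 of the 7 genes, with 6 windows since Prom1 has 2 starts, among 32851 windows in all. Rp1 and Rp1l1 were not among them. The windows were searched on both strands for TAATCC (the kind of site that the photoreceptor factor CRX binds), TGCTGA and AAGTCA (partial sites of the NRL and NR2E3 type) and CACCTG (an E-box), none of which contains another. TAATCC was in 0 of the 6 windows and in 7.06% of all windows, TGCTGA in 0 and in 19.5%, and AAGTCA in 0 and in 15.1%. CACCTG was in 2 of the 6, one of Prom1 and the one of Cdhr1, and in 20.2% of all windows. These counts concern letters in short windows and say nothing of what binds there.

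Of the disc formation genes, Prom1 (chr5:43993620-44102032 on the minus strand) had the highest level per length of the 7 genes at E14. It stood at 66.1, 69.7 and 70.5 CPM at E14, 68.7, 74.5 and 69.9 at E17 and 99.7, 93.5, 97.0 and 101 at P1. It then stood at 643, 611 and 581 CPM at P6, 652, 637, 649 and 608 at P15 and 586, 589, 573 and 606 at P28, with P60 from 513 to 648 CPM with a median of 573. The 17 libraries from P6 to P60 thus all lay between 513 and 652 CPM, and the 10 earlier ones between 66.1 and 101. Prom1 rose by 0.46 ± 0.064 (SE, adjusted p = 5.23e-06) from E17 to P1 and by 2.63 ± 0.064 (SE, adjusted p = 8.68e-25) from P1 to P6 by limma. At the other steps its log2 differences were 0.05 (E17 against E14), 0.06 (P15 against P6), -0.11 (P28 against P15) and -0.04 (P60 against P28), with adjusted p from 0.409 to 0.820, although every P28 library lay below every P15 library. Of its annotated exon length, 5.9% is shared with an antisense gene, Gm16401, and without knowledge of strand use in the counting the reads there could belong to either.

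Cdhr1, the photoreceptor cadherin (chr14:37077857-37098347 on the minus strand), measured 13.0, 14.7 and 14.6 CPM at E14, 32.1, 34.6 and 29.1 at E17 and 60.2, 58.6, 56.8 and 62.0 at P1. It was at 501, 488 and 475 CPM at P6, 451, 493, 485 and 489.6 at P15 and 449, 476, 458 and 439 at P28, and P60 ran from 452 to 527 CPM with a median of 483. Cdhr1 climbed at every step from E14 to P6 with no overlap between neighbouring ages, and from P6 on neighbouring ages overlapped. The rises were 1.12 ± 0.074 (SE, adjusted p = 3.48e-13) from E14 to E17, 0.88 ± 0.069 (SE, adjusted p = 5.39e-11) from E17 to P1 and 3.02 ± 0.069 (SE, adjusted p = 2.53e-25) from P1 to P6 by limma. After P6 the differences were -0.03, -0.07 and 0.09, with adjusted p from 0.309 to 0.807. The 250 bases before its start (RefSeq, GRCm38.p6, chr14:37098348-37098597, minus strand, 5′ to 3′) are printed as the window of a gene from this set that holds a searched motif, with the E-box in capitals.
Cdhr1: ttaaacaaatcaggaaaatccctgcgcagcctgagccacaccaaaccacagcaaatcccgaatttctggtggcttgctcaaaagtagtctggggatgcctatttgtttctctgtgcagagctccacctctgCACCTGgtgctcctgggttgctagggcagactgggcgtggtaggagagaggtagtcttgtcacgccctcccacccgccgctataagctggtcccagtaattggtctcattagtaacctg

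Fscn2, the retinal fascin (chr11:120361534-120368168 on the plus strand), was per length the lowest of the 7 genes from E17 on and had the latest step. Its values were 1.80, 1.48 and 2.95 CPM at E14, 1.43, 2.12 and 0.932 at E17 and 1.10, 3.03, 2.15 and 2.72 at P1, from 9 to 28 reads a library. They were 4.10, 4.33 and 7.03 CPM at P6, 22.2, 24.2, 23.4 and 23.8 at P15 and 24.1, 26.7, 35.4 and 33.9 at P28. At P60 the 6 libraries had 42.7, 39.9, 79.0, 53.8, 65.8 and 52.5 CPM, all above the highest at P28. The ages E14 to P1 overlapped, P6 lay just above them, and the clear step came between P6 and P15. By limma that step was 2.02 ± 0.23 (SE, adjusted p = 2.27e-08), against 0.93 ± 0.23 (SE, adjusted p = 0.00143) from P1 to P6. The step from P1 to P6 passed the 2-fold limit as well by edgeR (1.23). By limma it passed when P1 replicate 2 or 4 or P6 replicate 1 or 2 was left out, the largest value being 1.05. The smallest was 0.72, without P6 replicate 3, the highest P6 library. Over all settings of limma and edgeR its adjusted p was 0.0256 at most. From P28 to P60 Fscn2 rose by 0.85 ± 0.19 (SE, adjusted p = 0.00859). With the spread taken from P28 and P60 alone its adjusted p was 0.0915.

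The axonemal genes both rose past the 2-fold limit before birth. Rp1 (chr1:3999557-4409241 on the minus strand) had 3.30, 4.01 and 4.32 CPM at E14, 28.7, 31.4 and 30.1 at E17 and 218, 217, 210.2 and 214 at P1. It had 4186, 3659 and 3701 CPM at P6, 4942, 4976, 5011 and 4495 at P15 and 4919, 4627, 4785 and 4567 at P28. From E14 to P15 no 2 neighbouring ages overlapped, and P15 and P28 did. The rises by limma were 2.68 ± 0.09 (SE, adjusted p = 7.35e-20) from E14 to E17, 2.80 ± 0.084 (SE, adjusted p = 2.82e-21) from E17 to P1 and 4.15 ± 0.084 (SE, adjusted p = 2.01e-26) from P1 to P6, with 0.34 ± 0.084 (SE, adjusted p = 0.00225) from P6 to P15. At P60 Rp1 had 4366, 4220.4, 3374, 3518, 3122 and 3654 CPM in replicates 1 to 6, all below the lowest P28 library, and the change from P28 was -0.36 ± 0.071 (SE, adjusted p = 0.00417). Rp1 was the one gene of the 7 with a fall that passed the adjusted p at any step between neighbouring ages, and with the spread taken from P28 and P60 alone the adjusted p of this fall was 0.121.

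A second entry, Gm38717, carries a symbol that RefSeq lists as an older name of Rp1, and the reads of this gene may therefore be divided between both entries. Gm38717 ran from 0.200 to 0.632 CPM at E14, from 39.9 to 43.6 at P1, from 658 to 746 at P6 and from 606 to 675 at P28. That was on average 17.9% of the Rp1 entry at P6, 13.6% at P28 and 16.5% at P60. Its rise was called at the same early steps by limma, with 2.66 ± 0.10 (SE, adjusted p = 2.27e-18) from E14 to E17, 2.21 ± 0.10 (SE, adjusted p = 5.60e-17) from E17 to P1 and 4.03 ± 0.10 (SE, adjusted p = 8.57e-25) from P1 to P6. From P28 to P60, where the Rp1 entry fell, Gm38717 changed by -0.10 ± 0.083 (SE, adjusted p = 0.457). The sum of both entries ran from 5231 to 5525 CPM at P28 and from 3717 to 4956 at P60. Which exons each entry counted is not given in the sources used here.

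Rp1l1, the relative of Rp1 (chr14:63992506-64035025 on the plus strand), had 3.10, 2.74 and 2.42 CPM at E14, 15.2, 11.7 and 17.4 at E17 and 34.2, 46.1, 37.4 and 41.6 at P1. Later it had 516, 487 and 474 CPM at P6, 608, 655, 668 and 809 at P15 and 673, 673, 696 and 663 at P28. No library of one age up to P15 reached into the next, and P15 and P28 overlapped, with P15 replicate 4 above every P28 library. The rises by limma were 2.06 ± 0.13 (SE, adjusted p = 9.90e-14) from E14 to E17, 1.38 ± 0.12 (SE, adjusted p = 4.56e-10) from E17 to P1 and 3.60 ± 0.12 (SE, adjusted p = 1.80e-21) from P1 to P6, with 0.47 ± 0.12 (SE, adjusted p = 0.00252) from P6 to P15. At P60 Rp1l1 had 748, 725, 996, 837, 1025 and 916 CPM in replicates 1 to 6, all above the highest P28 library, and the change from P28 was 0.36 ± 0.10 (SE, adjusted p = 0.0219). That adjusted p rose to 0.119 with the replicate number as a block, which sets P60 replicates 5 and 6 aside. With the spread of P28 and P60 alone it was 0.140. It also rose to between 0.0501 and 0.0596 when P28 replicate 1, 2 or 4 or P60 replicate 3 or 5 was left out.

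Set side by side, the steps between neighbouring ages show when each gene moved. From E14 to E17, 3 of the 7 genes rose past both limits (Rp1, Rp1l1 and Cdhr1) where 2.9% of all features did, and 4 at the adjusted p alone, adding Rom1, where 7.56% did. From E17 to P1, 4 rose past both limits (Rp1, Prph2, Rom1 and Rp1l1) against 1.23% of features, and 6 at the adjusted p alone, adding Cdhr1 and Prom1, against 5.77%. From P1 to P6, 6 rose past both limits, with Fscn2 short of 2-fold, against 6.3% of features, and 7 at the adjusted p alone against 18%. The median change of the 7 at that step was 3.19 on the log2 scale, and -0.03 over all features tested. From P6 to P15, 2 rose past both limits (Fscn2 and Prph2) against 4.74% of features, and 5 at the adjusted p alone, adding Rom1, Rp1l1 and Rp1, against 14.4%. By edgeR 3 rose past both limits, since Rom1 came just past the limit, to 1.0029 (adjusted p = 6.69e-07).

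**Figure D2:**
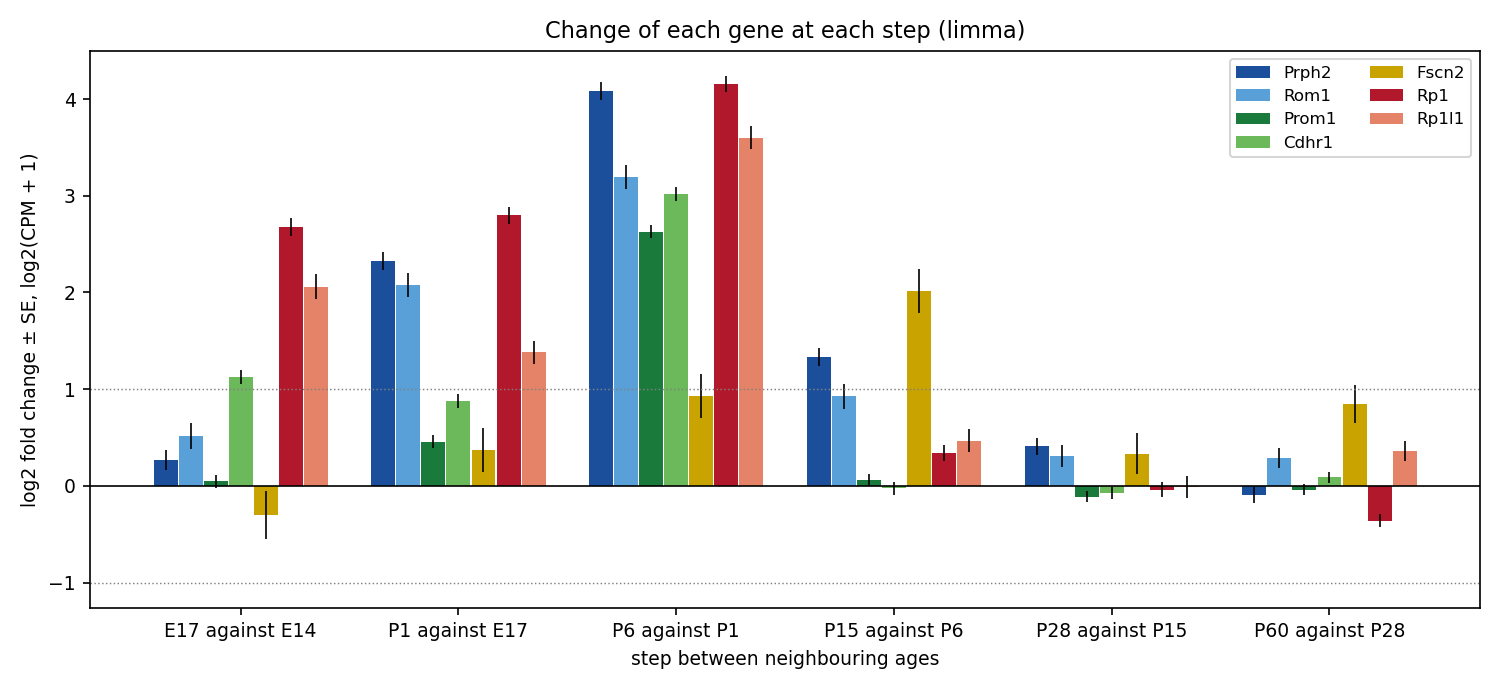
Log2 fold change of the 7 genes at each of 6 steps between neighbouring ages, from limma on log2(CPM + 1), with bars for the estimate, error bars for its standard error and dotted lines at the 2-fold limit. For 6 of the genes the plot has the largest bar at P6 against P1, from 2.63 for Prom1 to 4.15 for Rp1, and Fscn2 has its largest at P15 against P6, 2.02.

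No step after P15 took a gene past both limits. From P15 to P28, 0 of the 7 genes passed both limits by limma or by edgeR, 1 (Prph2) passed the adjusted p alone by limma, and 2 (Prph2 and Rom1) had an unadjusted p under 0.05. Of all features, 0.164% were called higher with both limits and 1.14% at the adjusted p alone. From P28 to P60, again 0 of 7 passed both limits by limma or edgeR, 4 had an unadjusted p under 0.05, and 3 passed the adjusted p alone by limma, Fscn2 and Rp1l1 upward and Rp1 downward. Here 0.0756% of features were called higher with both limits, 4.8% higher at the adjusted p alone and 8.11% lower at the adjusted p alone. With the spread estimated from P28 and P60 alone, 0 of the 7 genes passed, and the features called at the adjusted p alone went from 1524 higher and 2576 lower to 19 and 4. By edgeR the features called at the adjusted p alone were 2118 higher and 1363 lower, and under median-of-ratios scaling 2093 and 1966. The calls at this step thus depend on the spread taken from the other ages.

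Relative to their own means at P28, the genes differed in schedule, though Prom1 and Cdhr1 stood close together at P6. At P6 Cdhr1 stood at 107% ± 2.87 (SD, n = 3) and Prom1 at 104% ± 5.30, both near the P28 mean. The axonemal genes followed, Rp1 with 81.5% ± 6.21 and Rp1l1 with 72.8% ± 3.13. The rim genes stood at 42.4% ± 2.28 for Rom1 and 29.9% ± 2.39 for Prph2, and Fscn2 at 17.1% ± 5.43. By P15 Rp1 had 103% ± 5.13 and Rp1l1 101% ± 12.8 of the P28 mean (n = 4), while Rom1 had 81.0% ± 8.84, Fscn2 77.9% ± 2.87 and Prph2 75.3% ± 2.44. Gnat1, the rod transducin subunit and a gene outside the set, was at 1.27% ± 0.445 at P6 and 67.5% ± 1.88 at P15. Every disc structure gene, Fscn2 included, was thus nearer to its P28 level at P6 than Gnat1 was. Before birth Prom1 alone was above 10% of its P28 mean, with 11.7% ± 0.399 at E14 and 12.1% ± 0.518 at E17.

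**Figure D3:**
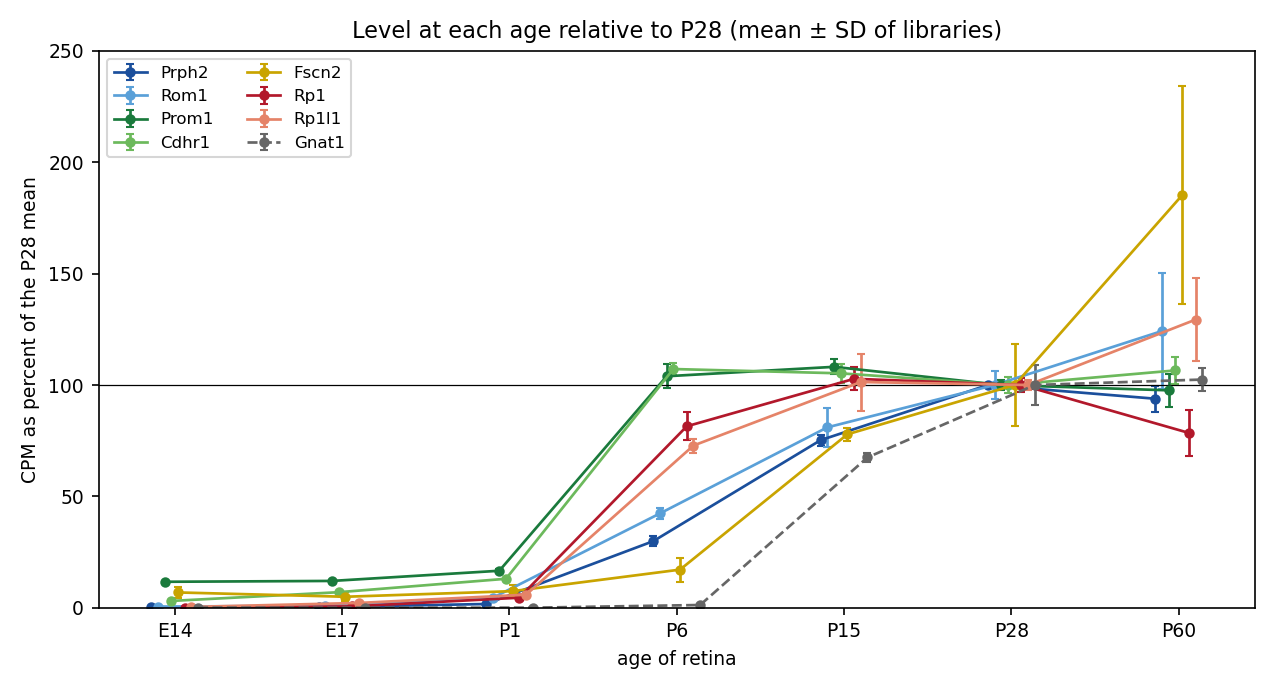
Mean level of the 7 genes and of Gnat1 (dashed) at each age as a percent of the P28 mean of the same gene, with SD over libraries. At P6 the genes span from 17.1% (Fscn2) to 107% (Cdhr1), and Gnat1 is at 1.27%.

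The schedules were tested as ratios of 2 genes within a library, which the scaling between libraries does not touch. Mature libraries (14 of P15, P28 and P60) were compared with the 3 of P6, and the 6 of P60 with the 4 of P15, by two-sided exact permutation tests on the log2 ratio, with Benjamini-Hochberg adjustment over 18 tests. The smallest unadjusted p that these designs allow is 0.00294 and 0.00952. Of the 18 tests, 14 had an adjusted p under 0.05. The ratios share genes and libraries and are not independent of one another.

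Prom1 relative to Prph2 was 1.05, 1.15 and 1.08 at P6, 0.464, 0.461, 0.470 and 0.412 at P15 and 0.313, 0.317, 0.302 and 0.323 at P28. Every mature library lay below the 3 P6 libraries. The log2 ratio was lower in mature retina, with a difference of -1.62 (exact permutation test, adjusted p = 0.0106), and lower at P60 than at P15, with -0.47 (exact permutation, adjusted p = 0.0156). Cdhr1 relative to Prph2 was also lower, going from 0.819, 0.919 and 0.881 at P6 to 0.240, 0.257, 0.241 and 0.234 at P28, with differences of -1.63 and -0.30 (exact permutation, adjusted p = 0.0106 and 0.0156). Between themselves, Prom1 and Cdhr1 kept a ratio of 1.28, 1.25 and 1.22 at P6 and 1.31, 1.24, 1.25 and 1.38 at P28, and the difference of mature from P6 retina was 0.00180 on the log2 scale (exact permutation, adjusted p = 0.979). At E14 the same ratio was 5.08, 4.76 and 4.82. At P60 it was below P15, with a log2 difference of -0.17 (exact permutation, adjusted p = 0.0286), a call that was lost at an adjusted p of 0.0659 without P15 replicate 1, 2 or 3.

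Rp1 relative to Prph2 was 6.84, 6.89 and 6.86 at P6, 3.52, 3.61, 3.63 and 3.04 at P15 and 2.63, 2.49, 2.52 and 2.44 at P28. The 3 P6 libraries lay close together, and no later library went above 3.63. Its log2 difference was -1.43 for mature against P6 and -0.71 for P60 against P15 (exact permutation, adjusted p = 0.0106 and 0.0156). Rp1l1 relative to Prph2 was lower in mature than in P6 retina, with a log2 difference of -0.97 (exact permutation, adjusted p = 0.0106), and for P60 against P15 the difference was 0.03 (adjusted p = 0.887, exact permutation). The pair of axonemal genes changed against each other, with Rp1l1 relative to Rp1 at 0.123, 0.133 and 0.128 at P6, 0.137, 0.145, 0.146 and 0.145 at P28 and 0.171, 0.172, 0.295, 0.238, 0.328 and 0.251 at P60 in replicates 1 to 6. For P60 against P15 this log2 ratio differed by 0.74 (exact permutation, adjusted p = 0.0378). Without P15 replicate 1, 2 or 3 or P60 replicate 3, 4, 5 or 6 the adjusted p was from 0.0571 to 0.0918. For mature against P6 the difference was 0.46 (exact permutation, adjusted p = 0.0378), with an adjusted p from 0.0643 to 0.150 when any 1 of the P6 libraries was left out.

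Rom1 relative to Prph2 was 0.358, 0.392 and 0.365 at P6, 0.250, 0.288, 0.280 and 0.308 at P15 and 0.266, 0.254, 0.244 and 0.283 at P28. At P60 it was 0.264, 0.263, 0.409, 0.368, 0.439 and 0.342 in replicates 1 to 6, so that the first 2 libraries sat with P28 and the other 4 above it. The log2 difference was -0.32 for mature against P6 and 0.28 for P60 against P15, with adjusted p of 0.0988 and 0.150 by the exact permutation test. The first of these passed without P60 replicate 5, at -0.36 and an adjusted p of 0.0459 (exact permutation). Fscn2 moved the other way from Prom1 and Cdhr1 in its log2 ratio to Prph2. That ratio was 1.03 higher in mature than in P6 retina and 0.86 higher at P60 than at P15 (exact permutation, adjusted p = 0.0156 for both). With a pseudocount of 0.1 in place of 1 these differences were 1.23 and 0.89. Gnat1 relative to Prph2 rose from 0.144, 0.0841 and 0.171 at P6 to 2.91, 2.84, 2.81 and 2.77 at P15. Its log2 difference of 4.62 between mature and P6 retina was the largest of the 9 ratios (exact permutation, adjusted p = 0.0106), and for P60 against P15 the difference was 0.28 (exact permutation, adjusted p = 0.0156).

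**Figure D4:**
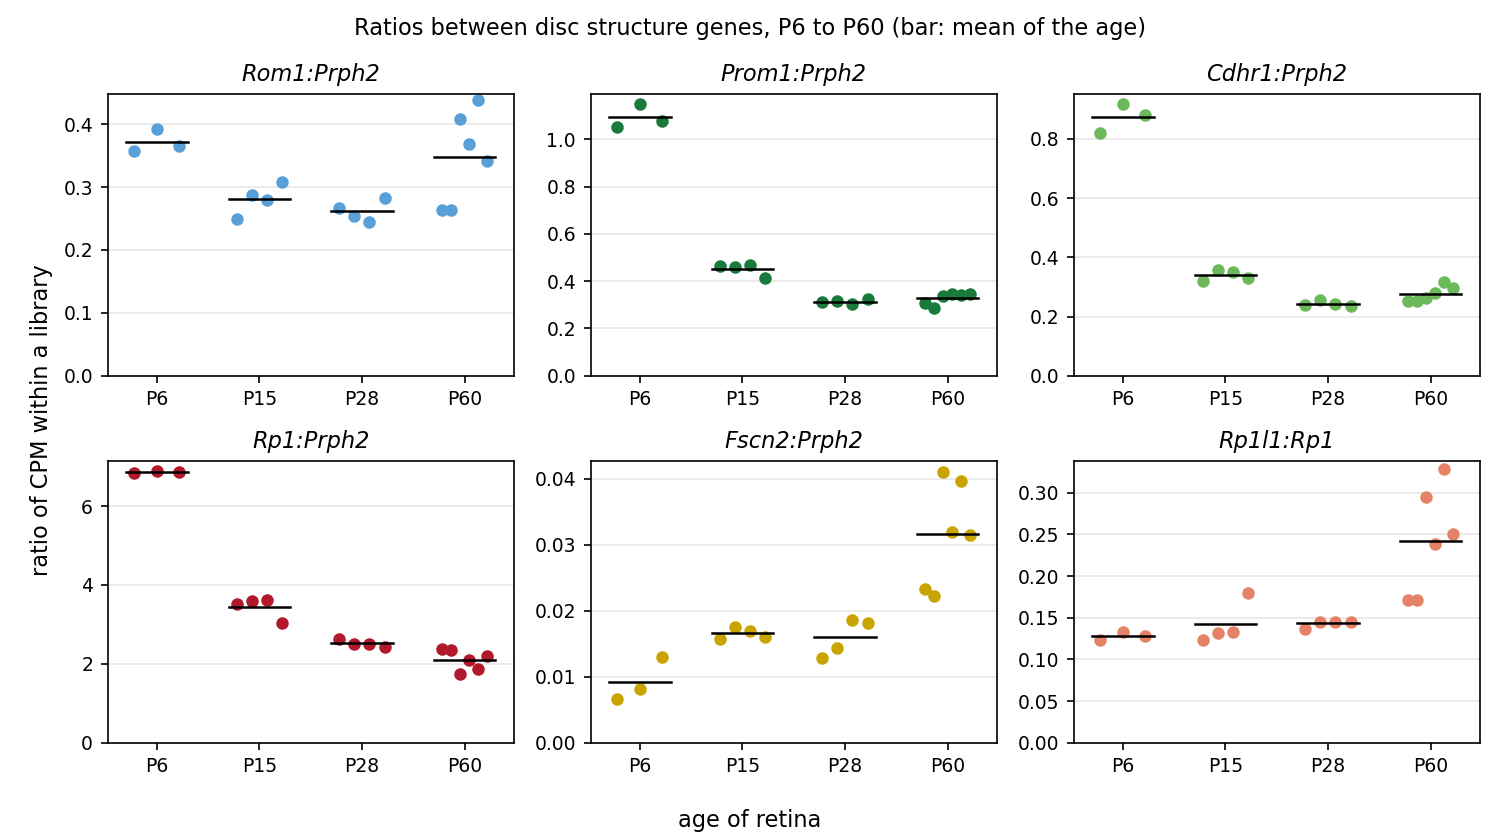
Ratio of CPM of 2 genes within each library from P6 to P60, on linear axes from 0, with points for libraries and a bar for the mean of each age. Prom1, Cdhr1 and Rp1 fall against Prph2 after P6, with Prom1:Prph2 going from a mean of 1.09 to 0.314 at P28, and the P60 libraries scatter most for Rom1:Prph2, Fscn2:Prph2 and Rp1l1:Rp1.

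The P60 libraries differed from one another in several genes at once. In replicates 1 and 2 Rp1 was at 4366 and 4220.4 CPM and Fscn2 at 42.7 and 39.9, the values nearest to P28. In replicates 3 to 6 Rp1 was lower, from 3122 to 3654 CPM, and Fscn2 was higher, from 52.5 to 79.0. Replicates 1 and 2 were also the lowest of the 6 for Rom1, Rp1l1, Prom1 and Cdhr1, Prom1 having 560.1 and 513 CPM in them and from 568 to 648 in the others, while Prph2 did not separate the libraries in this way. Summed cone markers were 492 and 492 CPM in replicates 1 and 2 and from 544 to 611 in the others, and summed Müller glia markers 962 and 965 against 1074 to 1133. The summed progenitor markers, low at this age, were 15.1 and 18.7 CPM against 25.5 to 28.8. The listed other outer segment genes summed to 32467 and 31526 CPM against 33156 to 37846. The summed rod markers did not divide them, at 8682 and 8089 against 8403 to 9566. Gnat1 made up most of the rod sum, with a mean of 6056 CPM at P60, and Glul of the Müller sum, with 662. Ccnd1 made up most of the progenitor sum, with 19.1 CPM. By the methods, single-mouse libraries at P60 were as many as replicates 3 to 6, but the labels do not name them. The part of these markers, and of pooled against single mice, in the P60 differences was not tested.

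Levels of different genes were compared per kilobase of the union of annotated exons. At P28 Prph2 had 625 ± 6.27 CPM per kb (SD, n = 4), Rp1 384 ± 12.9 and Rom1 324 ± 19.9. Cdhr1 with 105 ± 3.66, Rp1l1 with 89.3 ± 1.88 and Prom1 with 82.0 ± 1.84 formed a second tier, and Fscn2 came last with 14.2 ± 2.61. No 2 neighbours in this order overlapped between libraries at P28 on this length. Among 19073 genes with a length, Prph2 ranked 8th, Rp1 11th and Rom1 18th at P28, and Fscn2 2235th. At P6 the order of the leading genes was another, with Rp1 ranked 13th, Prph2 30th and Rom1 51st. In the embryo Prom1 led, at 9.59 ± 0.327 CPM per kb at E14, ahead of Cdhr1 at 3.25 ± 0.219 and Rom1 at 1.86 ± 0.339, and Rp1 was lowest at 0.315 ± 0.0423 beside Rp1l1 at 0.364 ± 0.0449, which overlapped it. Per kb of the longest coding transcript, the P28 mean was 704 for Prph2, 688 for Rp1, 144 for Prom1 and 105 for Cdhr1, so that Prom1 came before Cdhr1. On that length Rp1 was above Prph2 at P15, with 707 against 529 CPM per kb, and at P28 their libraries overlapped, from 665 to 716 for Rp1 and from 696 to 713 for Prph2. The length of Rp1 is the least certain, since its exon union of 12311 bases may hold exons that were counted under Gm38717.

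**Figure D5:**
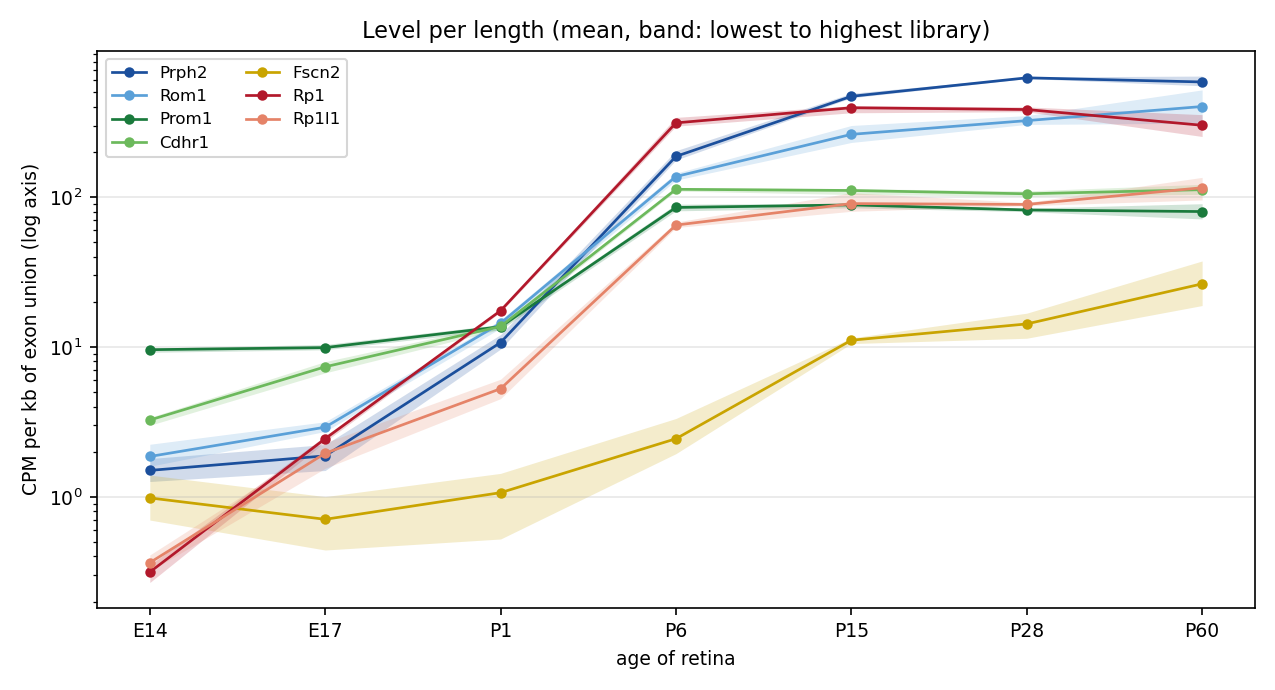
Mean level of the 7 genes by age in CPM per kb of annotated exon union, on a log axis, with bands from the lowest to the highest library. Prom1 is highest at E14, at 9.59, Rp1 at P6, at 313, and Prph2 from P15 on (on the longest coding transcript Rp1 is above Prph2 at P15), and Fscn2 stays below the other 6 genes from E17.

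Other genes of the outer segment and its cilium were counted as a list of 19, of which 18 were tested under their symbols. In mature against embryonic retina 15 of 18 rose past both limits by limma, where 14.9% of all features did. At the adjusted p alone 18 rose, against 35% of features, and the median log2 change was 6.40. From P1 to P6, 15 of 18 rose past both limits against 6.3% of features. The median change there was 2.89 beside 3.19 for the disc structure genes. From P6 to P15, 9 of 18 rose past both limits against 4.74% of features, with a median of 1.01 beside 0.47. The largest rises of the list at this step were those of Gnat1, with 5.79 ± 0.20 (SE, adjusted p = 3.80e-20) and of Pde6a, a subunit of the rod phosphodiesterase, with 3.25 ± 0.18 (SE, adjusted p = 1.88e-15). From E14 to E17, 4 of 18 rose past both limits (Tulp1, Mak, Rpgrip1 and BC027072) against 2.9% of features. By limma Tulp1, a carrier of proteins into the outer segment, rose by 2.50 ± 0.17 (SE, adjusted p = 1.27e-12). Rpgrip1, a scaffold of the connecting cilium, rose by 1.48 ± 0.12 (limma, SE, adjusted p = 7.83e-11). Prcd, a small disc protein, had no entry under that symbol, and the entry under its older name Gm11744 at E14 had 1.06 ± 0.567 CPM (SD, n = 3), and at P28 it had 59.9 ± 5.59 CPM (SD, n = 4).

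Relatives of the 7 genes that also serve other cells were counted as a second list. Of 10 such genes 6 passed the filter, and in mature against embryonic retina 2 rose and 3 fell past both limits by limma, where 14.9% of all features rose and 16.1% fell. Those that rose were Cd9, with 1.68 ± 0.11 (SE, adjusted p = 5.89e-15), and Dcdc2a, a doublecortin relative, with 1.27 ± 0.10 (SE, adjusted p = 5.63e-13). Those that fell were Fscn1, Dcx and Dclk1, the last with -1.13 ± 0.051 (SE, adjusted p = 3.92e-19). Fscn1, the fascin of many growing cells, at E14 had 137 ± 2.09 CPM (SD, n = 3), and at P28 it had 23.5 ± 2.89 CPM (SD, n = 4), with a log2 change of -2.26 ± 0.078 (SE, adjusted p = 2.60e-22) from embryonic to mature retina. Dcx, the doublecortin of young neurons, had 417 ± 8.41 CPM (SD, n = 3) and 13.3 ± 1.49 CPM (SD, n = 4), with -4.68 ± 0.087 (SE, adjusted p = 1.22e-29). At P60 Fscn1 had 20.0 ± 2.62 CPM (SD, n = 6). Fscn3, Prom2, Cdhr2 and Cdhr5 did not pass the filter, and no mean of theirs at any age reached 1 CPM.

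Across the 27 libraries, the features most like each gene were taken as those with the highest Pearson r of log2(CPM + 1) among 19913 tested features with a Gene ID, as a description that shares libraries and age. Most alike to Prph2 were Gucy2e (r = 0.997), Cngb1 (0.997) and Nxnl1 (0.997), and to Rom1 Pde6b (r = 0.996), Cngb1 (0.996) and Clstn1 (0.996). Gucy2e is a photoreceptor guanylate cyclase, Cngb1 a subunit of the rod cyclic nucleotide channel and Pde6b a subunit of the rod phosphodiesterase. Prom1 was most like Ndnf (r = 0.996), Fam135b (0.996) and Lamp5 (0.995), none of them a gene of the lists, and Cdhr1 most like Stx3 (r = 0.996), Lrit1 (0.995) and Hs3st3b1 (0.995). For Rp1 the features were Gm38717 (r = 0.998), Nrl (0.996) and Pcdh15 (0.996), of which the first carries the older name of Rp1 and Nrl encodes the transcription factor that sets rod fate. Rp1l1 was most like Syp (r = 0.996), Mef2d (0.996) and Mak (0.996), and Fscn2, with the lowest likeness, like Ccdc24 (r = 0.986), B4galt2 (0.986) and Guca1a (0.985). Among the 7 genes themselves, r was highest for Prph2 with Rom1, at 0.996, and for Cdhr1 with Rp1l1, at 0.994, and lowest for Fscn2 with Rp1, at 0.792. By Spearman's rho 0 of the 3 named features stayed among the first 3 for any of the 7 genes, so that the named neighbours depend on the measure.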

How the data were processed

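The authors made libraries with the SMARTer total RNA kit, sequenced them from one end on an Illumina HiSeq, aligned the reads to GRCm38 (mm10) with STAR and deposited a single CPM table (counts scaled to the reads of each library) for the 27 libraries. The annotation and whether counting used strand are not given in the sources used here. Low values were whole multiples of 1 read in every library, so that 100% of the deposited CPM values came out as whole reads (within 0.1 read). Values summed to 999814.1 to 999881.7 per library. No library looked like a copy of another, the lowest chi-square per degree of freedom between libraries of one age being 1.69.

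Groups and replicate numbers followed the labels. The 7 genes, the gene lists and the tests were chosen with earlier results of these data known, and the named genes were all 7, those lists, and for each gene the 3 features of highest r. Gm38717 and Gm11744 were added after the table was searched for older names. CPM values were analysed as log2(CPM + 1) with limma 3.58.1 (mean-variance trend, all 27 libraries, age as the only factor, two-sided, Benjamini-Hochberg over 31760 features) in R 4.3.3. A feature was called where the adjusted p was below 0.05 and log2 fold change was 1 or more in size. Python 3.11.15 with scipy 1.17.1, numpy 2.4.6, pandas 2.3.3 and matplotlib 3.10.9 served for ratios, exact permutation tests and plots. The scripts were tested on simulated reads. Alternatives were edgeR 4.0.16 (quasi-likelihood, TMM) on the recovered reads, which called 7469 features higher and 6100 lower in mature against embryonic retina, median-of-ratios scaling, a pseudocount of 0.1, other filters, the compared ages only, the replicate number as a block, summed entries of a symbol, calls without a fold limit, and each library left out in turn. EdgeR without E14 replicate 1 was added after seeing the data, because 1 read there was worth almost exactly 0.1 CPM, a round value. Gene positions and lengths came from GENCODE vM21 and promoter sequences and older names from RefSeq (GRCm38.p6).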

Additional observations from a re-analysis of the deposited data

Results flagged for a closer look

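Within an age, 1 library lay far from the rest (Dixon's test at the 95% level) in 4 of 64 groups of values examined, and chance alone flags about 1 in 20 groups. Rp1 in P15 replicate 4 had 4495 CPM, below the other 3 libraries at 4942 to 5011. In the same library Prom1 relative to Prph2 was 0.412, below the others at 0.461 to 0.470. In P1 replicate 2 Rp1l1 relative to Prph2 was 1.53, above the others at 1.13 to 1.18. In P28 replicate 1 Rp1l1 relative to Rp1 was 0.137, below the others at 0.145 to 0.146. Causes of these were not tested.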

How the results depend on the processing

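Of 1175 recomputed values with a test, 1120 kept their direction and side of the threshold. That count includes settings that could hardly move a value. Each gene had 1 entry, so summing entries left its levels as they were. The other filters left its log2 fold changes as they were and could change only their SE and p. With no minimum fold change the genes called went from 2 to 5 (P15 against P6), from 0 to 1 (P28 against P15) and from 0 to 3 (P60 against P28). Differences near 0 turned sign. Under median-of-ratios scaling Prom1 was at -0.00545 (E17 against E14) and 0.0319 (P60 against P28), Cdhr1 at 0.0438 (P15 against P6) and Rp1l1 at 0.00540 (P28 against P15). By edgeR Cdhr1 was at 0.0414 (P15 against P6) and Prom1 at 0.0264 (P60 against P28). Without E14 replicate 1, edgeR put Prom1 at -0.0107 (E17 against E14), Cdhr1 at 0.0414 (P15 against P6) and Prom1 at 0.0264 (P60 against P28). Leaving out 1 library, Cdhr1 (P15 against P6) ran from -0.0457 to 0.00284, Rp1l1 (P28 against P15) from -0.0655 to 0.0715, the log2 ratio Prom1:Cdhr1 (mature against P6) from -0.0157 to 0.0192 and the log2 ratio Rp1l1:Prph2 (P60 against P15) from -0.0342 to 0.0908. The count of ratios called ran from 12 to 14. The cause of these shifts was not tested.

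With the replicate number as a block, Rp1l1 (P60 against P28) was at 0.28 (limma, adjusted p = 0.119), and the replicate block changed no other call of the 7 genes. The numbers do not pair the libraries, since deviations of same-numbered libraries of different ages correlated with a median r of -0.00178 over 69 pairs (-0.129 to 0.167). The block took features higher at P60 than at P28 at the adjusted p alone from 1524 to 366, and those lower from 2576 to 663. Replicate numbers 5 and 6 occur only at P60, so the block sets those libraries aside in any comparison with P60.

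Counts over all features moved more than those of the 7 genes. With both limits edgeR called 7469 features higher in mature than in embryonic retina where limma called 4726, and 184 against 24 at P60 against P28. Calls in the lower direction at that last step went from 120 to 236 by edgeR, and median-of-ratios scaling gave 39 higher and 86 lower. For limma the same counts of higher features were 6587 and 110 with a pseudocount of 0.1, and 2396 and 5 over the 13492 features with a mean CPM of at least 10. EdgeR with TMM moved the median log2 change of all features between mature and embryonic retina from -0.06 to 0.04. Depth limits Fscn2 most, with 9 to 28 reads a library up to P1.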
